A study of Mus musculus with 5 samples.

Results

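The 10 genes described here are nuclear genes whose proteins transcribe the mitochondrial genome, copy it, keep its RNAs stable, or switch on other genes of this machinery. They were chosen by name: Tfam, Tfb1m, Tfb2m, Polrmt, Tefm, Polg, Lrpprc, Slirp, Nrf1 and Gabpa. They are 10 of the 52022 genes to which counts could be assigned, and all 10 passed the filter on low counts that left 16450 genes for testing. Libraries were made from RNA of brown adipose tissue (BAT), 1 per mouse, for 3 ATF4 BKO and 2 WT animals. ATF4 BKO mice carried floxed Atf4 (Atf4 fl/fl) together with a Cre transgene under the Ucp1 promoter (Tg(Ucp1-cre)1Evdr), so that Atf4 is removed in adipocytes that use this promoter and the other cells of the depot keep it. WT mice were Atf4 fl/fl without Cre, and both groups therefore shared the floxed allele. All were described as males of 10 to 12 weeks on a C57Bl/6J background, fed ad libitum, kept at thermoneutrality (30 °C) for 7 days and then at 4 °C for 3 days. No library came from warm-housed mice, so every value is a level in cold-exposed BAT and the comparison is between genotypes in the cold.

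Mitochondria keep a small circular genome that encodes core subunits of the respiratory chain, 2 rRNAs and the tRNAs needed to translate them, and every protein that reads or copies this genome is imported from the cytosol. TFAM coats the DNA and bends the promoters, POLRMT is the RNA polymerase, TFB2M helps it open the promoter, and TEFM keeps it from stopping before the transcript is complete. POLG is the catalytic subunit of the DNA polymerase. LRPPRC and SLIRP form a complex that protects mitochondrial mRNAs from decay, and the transcription factors NRF1 and GABPA bind promoters of many nuclear genes for mitochondrial proteins. Brown adipocytes are packed with mitochondria, in which UCP1 turns the proton gradient into heat.

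Total estimated counts were 24698337 to 31558111 in ATF4 BKO and 30996438 to 32452751 in WT mice. Atf4 itself, the deleted gene, was at 32.6, 52.6 and 23.5 CPM (counts scaled to library size) in ATF4 BKO replicates 1, 2 and 3 and at 286 and 226 CPM in WT replicates 1 and 2. All 3 ATF4 BKO mice were far below both WT mice, with a log2 fold change of -2.82 (SE 0.34). Its adjusted p was 0.671 with edgeR's quasi-likelihood test and 9.72e-12 with DESeq2. All 16 brown adipocyte markers were detected in every library, at a sum of 21469 to 27163 CPM in ATF4 BKO and 20617 to 22991 CPM in WT mice. One library went against the description of the mice as male: ATF4 BKO replicate 1 had 4598 counts of Xist, a transcript of the inactive X chromosome, against at most 7 elsewhere, and 34 counts over 4 Y-linked genes against at least 3284 elsewhere. By these counts sex was mixed among the ATF4 BKO mice and not among the WT mice. No fit held a term for sex. Skeletal muscle markers also moved with genotype: 21 of 22 were lower in every ATF4 BKO mouse, beside 10.6% of all genes tested. Their sum was 41.6 to 58.3 CPM in ATF4 BKO mice, 148 CPM in WT replicate 1 and 2743 CPM in WT replicate 2. Smpx was at 0 in all 3 ATF4 BKO mice, Xirp2 and Myot in 2 of them, and Tnnt3 and Pvalb in 1. Endothelial markers summed to 1420 to 1776 CPM in ATF4 BKO and 1111 to 1306 CPM in WT mice, with none at 0. Of these 10 markers, 5 were higher in every ATF4 BKO mouse, beside 8.95% of all genes tested. All 10 macrophage markers and all 10 fibroblast and progenitor markers had a log2 fold change above 0, with medians of 0.42 and 0.48 and none at 0. Their sums varied widely within both groups: the macrophage markers from 529 to 1462 CPM in ATF4 BKO and from 215 to 1201 CPM in WT mice, and the fibroblast markers from 901 to 2697 CPM and from 1012 to 1846 CPM. A fit with the muscle markers as a covariate was made for every gene, and the part of the other markers in the results was not tested. In bulk tissue, fewer cells of a type and less RNA per cell cannot be told apart. Nothing in the labels says whether the samples were handled separately, and p-values measure the spread between these libraries.

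Levels of different genes were compared in TPM, which corrects the counts for transcript length and library size. By this measure Slirp ranked highest of the 10, with 151, 134 and 138 TPM in ATF4 BKO and 170 and 160 TPM in WT mice. Slirp stood above every other gene of the 10 in every library. Below it came a middle tier of 6 genes with mean TPM between 35.2 and 45.0 over the 5 libraries: Polg, Tfb2m, Lrpprc, Tfam, Polrmt and Gabpa, in falling order. Within this tier each gene's range overlapped that of its neighbour in the order, although Lrpprc was above Tfam in every library. Tefm followed at a mean of 20.6 TPM, below Gabpa and above Tfb1m in every library without overlap of the ranges. Tfb1m (mean 8.60 TPM) and Nrf1 (7.15 TPM) were lowest. Their ranges overlapped, although Tfb1m was above Nrf1 in every library. The mean TPM of Slirp was 21.0 times that of Nrf1. The pair of TFB proteins, which descend from an rRNA methyltransferase, were unequal in RNA: Tfb2m, the transcription factor, had 4.001 to 6.93 times the TPM of Tfb1m, the enzyme that still methylates the small-subunit rRNA, depending on the library. Slirp, which encodes a small RNA-binding protein, had 2.88 and 3.20 times the TPM of its partner Lrpprc in WT mice. In ATF4 BKO mice the ratios were 4.15, 3.36 and 3.98. The rank of Slirp, the middle tier and these ratios depend on the length correction. In CPM, Slirp was at 27.4 to 36.6 and Lrpprc at 131 to 198.7. Also of the middle tier, Polg was at 69.2 to 85.3 CPM and Tfam at 41.7 to 51.3 CPM. The order within the tier also counts transcripts of non-protein-coding biotype. They held 54.7% to 64.4% of the Polg TPM, 43.5% to 56.4% of the Gabpa TPM and 3.08% to 4.53% of the Lrpprc TPM. Most of the Slirp TPM lay on short models, Slirp-201 (335 bases) and Slirp-203 (362 bases). Snw1, on the other strand, overlaps 93.9% of the Slirp exon bases. Whether the counting used strand is not given, so the Slirp level is uncertain.

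**Figure D1:**
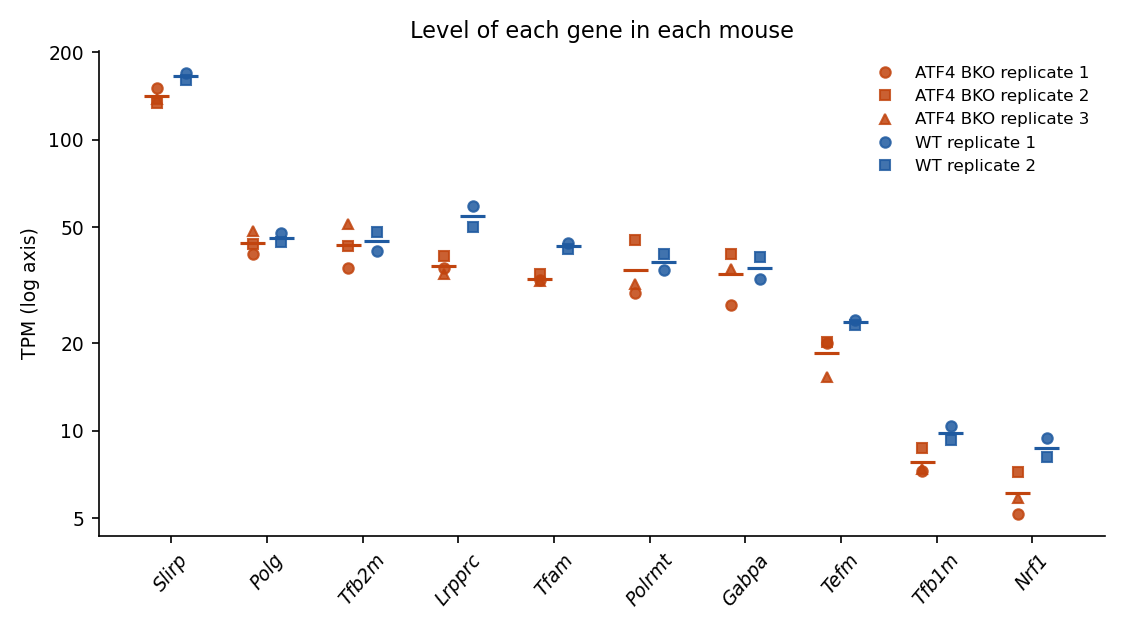
TPM (vertical axis, log scale) of each of the 10 genes in each mouse, ordered by mean level, with ATF4 BKO and WT mice as separate symbols, 1 point per mouse. Slirp lies above 134 TPM in every mouse, 6 genes share a middle tier with means of 35.2 to 45.0 TPM, and Tfb1m and Nrf1 are lowest, with means of 8.60 and 7.15 TPM.

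Differences between genotypes were small. None of the 10 genes passed an adjusted p of 0.05 with edgeR or with DESeq2. Over all tested genes edgeR called 0.00608% and DESeq2 0.736%. One of the 10, Lrpprc, had an unadjusted p under 0.05 with either tool, against 5.23% of all genes with edgeR (3.42% lower and 1.81% higher in ATF4 BKO). The log2 fold change of CPM, ATF4 BKO over WT, was below 0 in 7 of the 10 and above 0 in 3, with a median of -0.12, beside a median of 0.0077 and 48.8% below 0 over all genes tested. In 3 of the 10, Tfam, Lrpprc and Nrf1, all ATF4 BKO values lay below both WT values, which held for 10.6% of all genes. None was higher in every ATF4 BKO mouse, which held for 8.95%. The 95% intervals of 9 of the 10 differences included 0, and over the 10 genes they reached from -0.74 to 0.47 on the log2 scale, that is from -40.2% to 38.2%. The depth was not thin: the lowest estimated count was 186, for Tfb1m in ATF4 BKO replicate 1, and the highest 6279, for Lrpprc in WT replicate 1.

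**Figure D2:**
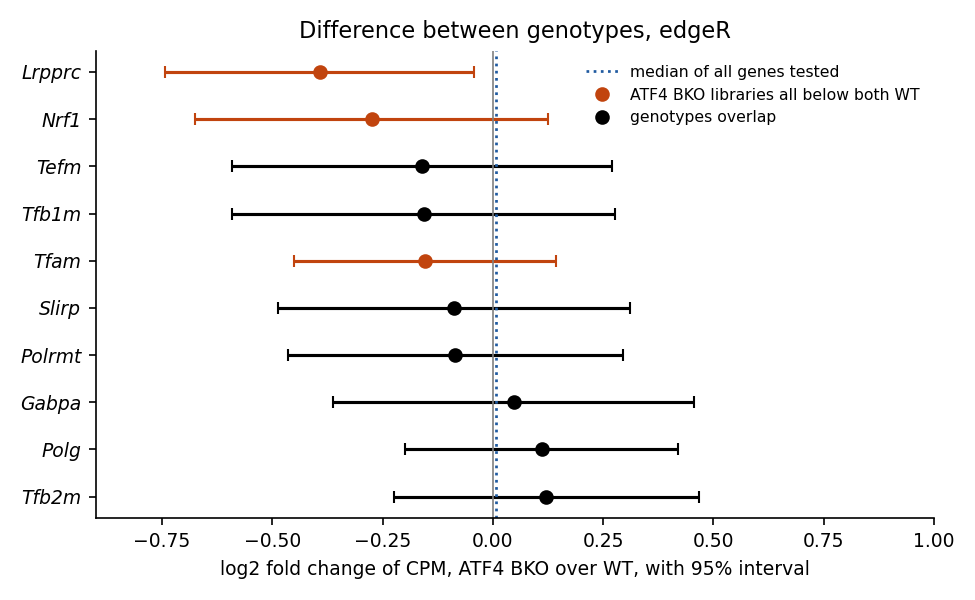
Log2 fold change of CPM, ATF4 BKO over WT (horizontal axis), for each gene, with bars for the 95% interval from edgeR. Lrpprc is the gene farthest from 0, at -0.39, and the one whose interval, not adjusted for the number of genes, leaves 0 out.

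The median spread of the 10 genes among mice of a genotype was below that of all genes, which were not matched to them by level. The SD of log2 CPM among the ATF4 BKO mice had a median of 0.15 over the 10, with a range of 0.062 to 0.24, beside a median of 0.24 over all genes. The WT mice differed by a median of 0.17 in log2 CPM, beside 0.27 over all genes, and the widest such gap was 0.32, for Lrpprc. In 8 of the 10 genes WT replicate 1 was higher than WT replicate 2, which held for 49.6% of all genes. The sum of the 10 was 524 to 545 CPM in ATF4 BKO and 609 and 549 CPM in WT mice. The median log2 fold change over the 10 went from -0.12 to -0.030 without WT replicate 1 and to -0.21 without WT replicate 2. Leaving out WT replicate 1 moved Tfam from -0.15 to -0.092, Tfb1m from -0.16 to -0.047, Tefm from -0.16 to -0.059 and Nrf1 from -0.27 to -0.16. Without ATF4 BKO replicate 2 Tfam was at -0.089, and without WT replicate 2 it was at -0.21. Without ATF4 BKO replicate 1, the library with Xist counts, the median was -0.15, with Lrpprc at -0.42, Tfam at -0.19 and Nrf1 at -0.22. With the muscle markers as a covariate, Lrpprc was at -0.68, Slirp at -0.44, Tefm at -0.36, Nrf1 at -0.34, Tfam at -0.32, Tfb1m at -0.26, Polrmt at -0.17, Polg at -0.095, Tfb2m at 0.056 and Gabpa at 0.33. None of the 10 passed an adjusted p of 0.05 in that fit, and 8 of the 10 values lay below 0. The covariate, a mean of log2 CPM, was -1.34, 0.28 and -1.76 in ATF4 BKO replicates 1, 2 and 3. It was 2.04 and 6.20 in WT replicates 1 and 2. The groups did not overlap in it, so with 5 libraries the fit cannot reliably separate it from genotype.

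The proteins that package and copy the DNA come first. Tfam (chr10:71225464-71238280, minus strand, GRCm38) was at 47.0, 41.7 and 45.4 CPM in ATF4 BKO and 51.3 and 48.1 CPM in WT mice. The groups did not overlap, but the gap between the highest ATF4 BKO and the lowest WT mouse was under the gap between the WT mice. The log2 fold change was -0.15 (SE 0.12), with a 95% interval of -0.45 to 0.14 and an edgeR adjusted p of 0.931. Polg (chr7:79446231-79466362, minus strand) was at 75.0, 76.6 and 85.3 CPM in ATF4 BKO and 77.2 and 69.2 CPM in WT mice. WT replicate 1 lay above 2 of the ATF4 BKO mice, and the log2 fold change was 0.11 (SE 0.13), with a 95% interval of -0.20 to 0.42. The sign of the Polg value depended on the scale: it was -0.060 on log2(TPM + 1).

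The transcription machinery gave no difference larger than its spread. Polrmt (chr10:79736123-79746581, minus strand) was at 55.4, 71.6 and 65.9 CPM in ATF4 BKO and 73.2 and 63.2 CPM in WT mice. ATF4 BKO replicate 1 was the lowest and the others lay between the WT mice, with a log2 fold change of -0.085 (SE 0.16) and a 95% interval of -0.46 to 0.29. Without that library the value was 0.012. Tfb2m (chr1:179528055-179546267, minus strand) was at 75.8, 65.7 and 82.7 CPM in ATF4 BKO and 66.3 and 71.2 CPM in WT mice. Here ATF4 BKO replicate 2 was the lowest of all 5, and the log2 fold change was 0.12 (SE 0.14), with a 95% interval of -0.22 to 0.47. Of the 31-base words in Tfb2m transcripts, 35.9% also occur on the same strand in transcripts of other genes, first among them Gm1818, so the Tfb2m value is uncertain. Tefm (chr11:80136678-80142175, minus strand) was at 19.3, 15.4 and 14.7 CPM in ATF4 BKO and 19.5 and 17.3 CPM in WT mice. ATF4 BKO replicate 1 lay between the WT mice and the other two lay below both, with a log2 fold change of -0.16 (SE 0.18) and a 95% interval of -0.59 to 0.27. Tfb1m (chr17:3519256-3557781, minus strand), which acts on the ribosome rather than on transcription, was at 8.21, 9.01 and 8.18 CPM in ATF4 BKO and 10.1 and 8.82 CPM in WT mice. The groups overlapped through ATF4 BKO replicate 2, and the log2 fold change was -0.16 (SE 0.18), with a 95% interval of -0.59 to 0.28.

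The RNA stability factors held the largest difference. Lrpprc (chr17:84705247-84790789, minus strand), a long RNA-binding protein of pentatricopeptide repeats, was at 142, 136 and 131 CPM in ATF4 BKO and 198.7 and 159 CPM in WT mice. The 3 ATF4 BKO mice lay close together and below both WT mice, while the WT mice lay farther from each other than WT replicate 2 lay from the ATF4 BKO mice. The means were 136 ± 5.90 CPM (SD, n = 3) and 179 ± 27.8 CPM (SD, n = 2). The log2 fold change was -0.39 (SE 0.14), a difference of -23.8%, with a 95% interval of -40.2% to -2.88%. With edgeR's quasi-likelihood test the adjusted p was 0.911, from an unadjusted p of 0.0336, and DESeq2 gave an adjusted p of 0.696. A difference of this size or larger in either direction was seen in 24.9% of all genes. Leaving out WT replicate 1 moved the log2 fold change to -0.21, and leaving out WT replicate 2 moved it to -0.56. The muscle covariate, which is confounded with genotype, moved it to -0.68, with an unadjusted p of 0.0533 from edgeR. It was -0.51 among the mice whose sample names begin with S1 and -0.29 among those with S2, a prefix whose meaning is not given. Mutations of LRPPRC are the cause of the French-Canadian form of Leigh syndrome, in which cytochrome c oxidase is deficient.

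Slirp (chr12:87443896-87452206, plus strand), its partner, was at 36.1, 27.4 and 33.7 CPM in ATF4 BKO and 36.6 and 32.3 CPM in WT mice. ATF4 BKO replicate 2 was lowest and the groups overlapped, with a log2 fold change of -0.088 (SE 0.16) and a 95% interval of -0.49 to 0.31. Of the 31-base words in Slirp transcripts, 94.1% also occur in transcripts of genes on the other strand, first among them Snw1. The kit marks strand, but whether the counting used it is not given, so reads of the overlapping genes may not have been told apart. The interval for Slirp covers the value seen for Lrpprc, and the difference between the partners was not tested.

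Nrf1 and Gabpa stand upstream of this machinery. Nrf1 (chr6:30047988-30153458, plus strand) was at 12.2, 14.7 and 13.1 CPM in ATF4 BKO and 17.2 and 15.1 CPM in WT mice. The groups did not overlap, although ATF4 BKO replicate 2 came close to WT replicate 2. The log2 fold change was -0.27 (SE 0.16), with a 95% interval of -0.68 to 0.13 and an edgeR adjusted p of 0.920. Gabpa (chr16:84834925-84863779, plus strand), the DNA-binding subunit of the factor also called NRF2, was at 52.9, 73.2 and 65.1 CPM in ATF4 BKO and 58.6 and 64.8 CPM in WT mice. The ATF4 BKO mice spanned both WT mice, and the log2 fold change was 0.047 (SE 0.17), with a 95% interval of -0.36 to 0.46. Among the other genes of the 10, the one closest to Lrpprc in its pattern over the 5 libraries was Nrf1, with a root mean square difference of 0.13 in centred log2 CPM. By the same measure Nrf1 was closest to Tfb1m (0.074), Tfam to Slirp (0.084) and Polg to Tfb2m (0.11).

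On TPM, 6 of the 10 genes were lower in every ATF4 BKO mouse, with Tfb1m, Tefm and Slirp joining the genes above, and the same held for 24.9% of all genes. Lrpprc was at 36.3, 40.0 and 34.6 TPM in ATF4 BKO and 59.0 and 50.1 TPM in WT mice, and Tfam at 32.9, 34.6 and 32.6 TPM against 44.3 and 42.1 TPM. TPM sums to the same total in each mouse, and mRNAs encoded by the mitochondrial genome took more of the counts in ATF4 BKO mice. The 13 mitochondrially encoded mRNAs summed to 221452, 159449 and 192648 CPM in ATF4 BKO and 123672 and 126982 CPM in WT mice. All 13 were higher in every ATF4 BKO mouse, beside 8.95% of all genes, with a median log2 fold change of 0.52. Of the 13, edgeR called 0 and DESeq2 called 2, beside 0.00608% and 0.736% of all genes. With edgeR 7 had an unadjusted p under 0.05, beside 5.23% of all genes. The part of these mRNAs in the TPM count was not tested.

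**Figure D3:**
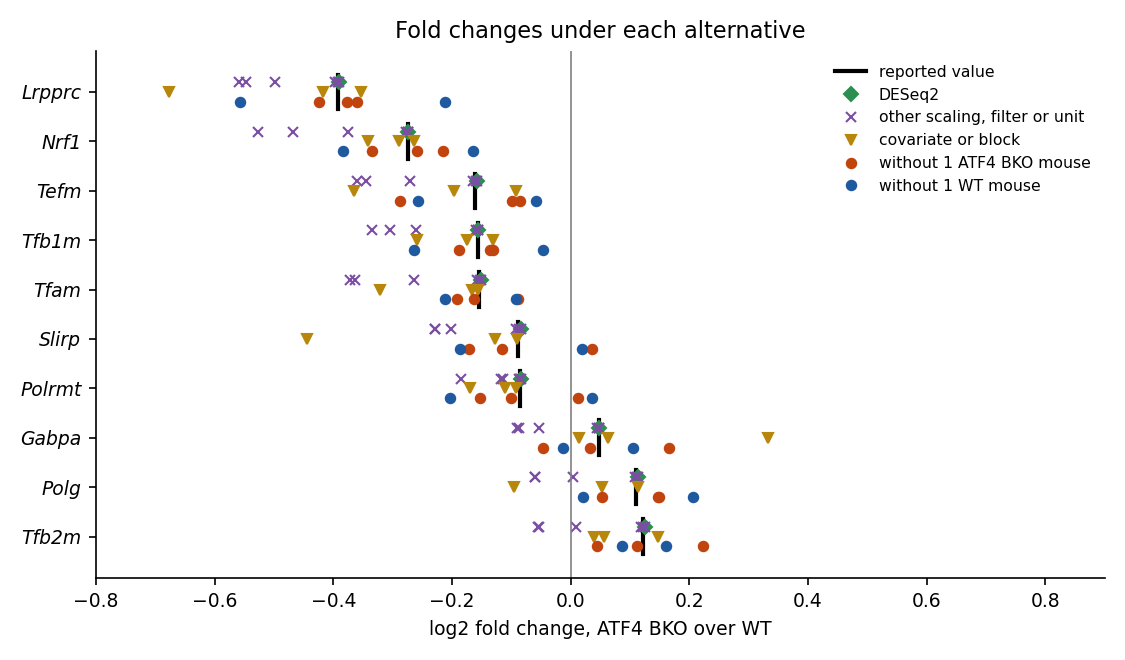
Log2 fold change of each of the 10 genes, ATF4 BKO over WT (horizontal axis), as reported and under each of 15 alternatives of test, scaling, covariate, block and left-out library, 1 point per alternative. Lrpprc stays below 0 throughout, from -0.68 to -0.21, while Gabpa, Polg, Polrmt, Slirp and Tfb2m have points on both sides of 0.

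Promoters of these genes are a standard example of NRF1 and GABPA targets, and RefSeq promoter windows (GRCm38.p6, 250 bases before to 50 after the transcription start) were available for all 10. The core bound by GABPA and other ETS factors, CCGGAAG on either strand, was found in 6 of the 10 genes with 8 matches, and in 8.86% of all 32851 promoter windows. Of the genes with the core, 5 are shown at their match closest to the RefSeq start. A match within 50 bases of that start is what most of them share. Gabpa itself is shown because it encodes the factor. The gene coordinates printed above come from another annotation (GENCODE). By those coordinates, the stretches shown for Tfam, Tefm, Polg and Gabpa lie inside the gene, so the distances depend on the choice of start. Each sequence is read along the gene's strand, 5′ to 3′, with the core in capitals.
Tfam, positions -47 to -41 from the start, chr10:71238074-71238102, minus strand: cctgccgcggaCCGGAAGtccgggcttcc
Polrmt, positions -43 to -37 from the start, chr10:79746607-79746635, minus strand: ccctaagagcgCTTCCGGcagtcgcagaa
Tefm, positions -9 to -3 from the start, chr11:80142145-80142173, minus strand: agcacacgaaaCCGGAAGttgaggaggaa
Polg, positions -38 to -32 from the start, chr7:79466294-79466322, minus strand: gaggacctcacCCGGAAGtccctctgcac
Slirp, positions -11 to -5 from the start, chr12:87443874-87443902, plus strand: tctggcaggttCTTCCGGggtcacgactc
Gabpa, positions -93 to -87 from the start, chr16:84835020-84835048, plus strand: gagggtaagtgCTTCCGGgtccctcagct

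The core of the NRF1 site, GCGCATGC on either strand, was found in 2 of the 10 genes, Tfb2m and Polrmt, and in 2.71% of all windows. In Tfb2m it lies just after the start, in the first transcribed bases, and in Polrmt upstream of the ETS core.
Tfb2m, positions 14 to 21 from the start, chr1:179546245-179546274, minus strand: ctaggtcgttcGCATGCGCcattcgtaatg
Polrmt, positions -133 to -126 from the start, chr10:79746696-79746725, minus strand: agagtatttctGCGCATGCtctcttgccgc
The windows of Tfb1m, Lrpprc and Nrf1 held neither core. The composite element of ATF4, TGATGNAA, was found in 0 of the 10 genes and in 3.97% of all windows, and the cAMP response element TGACGTCA in 0 and in 1.79%. The motifs were chosen after these promoters had been seen. A match says that the letters are there, not that a factor binds them, and the absence of one speaks of these windows alone.

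The transcript models behind the gene sums showed where the counts lie. Of 83 annotated transcripts of the 10 genes, 39 had a mean of at least 1 TPM. Of these 39, 9 were lower in every ATF4 BKO mouse and 0 were higher, while over all such transcripts 22.4% were lower and 4.25% higher. For Lrpprc, a single protein-coding transcript of 4393 bases, Lrpprc-201, held 95.5% to 96.9% of the TPM in every mouse, so the gene value is the value of that transcript. Tfb1m was likewise made almost entirely of Tfb1m-201, at 90.7% to 99.0%. In Polg, transcripts annotated as retained intron, nonsense-mediated decay or processed took 78.1% to 79.7% of its counts in ATF4 BKO and 76.3% to 77.3% in WT mice. Their share of the Polg TPM was 54.7% to 64.4% over the 5 mice. Gabpa, with 4.59% to 5.62% of counts on such transcripts, had 43.5% to 56.4% of its TPM there, and the most abundant of them, Gabpa-204, has 336 bases. The leading coding model of Polg, Polg-211, has 728 bases. For the leading protein-coding transcript's share of TPM, exact permutation tests over the 10 splits of the mice cannot go below p = 0.1 (two-sided), and after Benjamini-Hochberg adjustment over the 10 genes every p was 1.0. Before adjustment Polg-211 was at that floor of 0.1, with 21.6%, 22.8% and 22.7% in ATF4 BKO and 24.3% and 26.3% in WT mice. The widest gap in this share was that of Slirp-201, with 55.8% ± 7.85 (SD, n = 3) in ATF4 BKO and 45.1% ± 3.19 (SD, n = 2) in WT mice.

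One transcript, singled out after its values were seen, stood apart by genotype. Polrmt-202, a protein-coding model of 3535 bases, lacks exon 9 of Polrmt-201, a stretch of 222 bases at chr10:79740144-79740365. Exon 1 of Polrmt-201, 115 bases at chr10:79746465-79746579, is also not found with the same ends in Polrmt-202. It was given 0.02, 0.76 and 0.06 TPM in ATF4 BKO and 3.50 and 3.97 TPM in WT mice. All 3 ATF4 BKO mice were far below both WT mice, and the highest ATF4 BKO value was 21.7% of the lowest WT value. A separation as wide in this direction was seen in 0.449% of transcripts with a mean of at least 1 TPM. That width was set by the values of Polrmt-202 itself, which reached this mean through the WT mice alone. The share is therefore a description and not a test. In estimated counts it had 1.20, 60.1 and 5.47 in ATF4 BKO and 304 and 353 in WT mice, which is 0.10%, 2.99% and 0.28% of the Polrmt counts in ATF4 BKO and 13.2% and 16.5% in WT mice. The full-length Polrmt-201 had 71.0%, 73.8% and 72.0% of the counts in ATF4 BKO and 66.5% and 56.4% in WT mice. Its shares of the Polrmt TPM overlapped, at 38.5%, 38.8% and 44.7% in ATF4 BKO and 46.6% and 31.4% in WT mice. An exchange between these models was not tested. Kallisto divides reads among transcripts that overlap almost completely by a likelihood model, the tables give no error for that division, and no reads across the exon junction were analysed here.

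**Figure D4:**
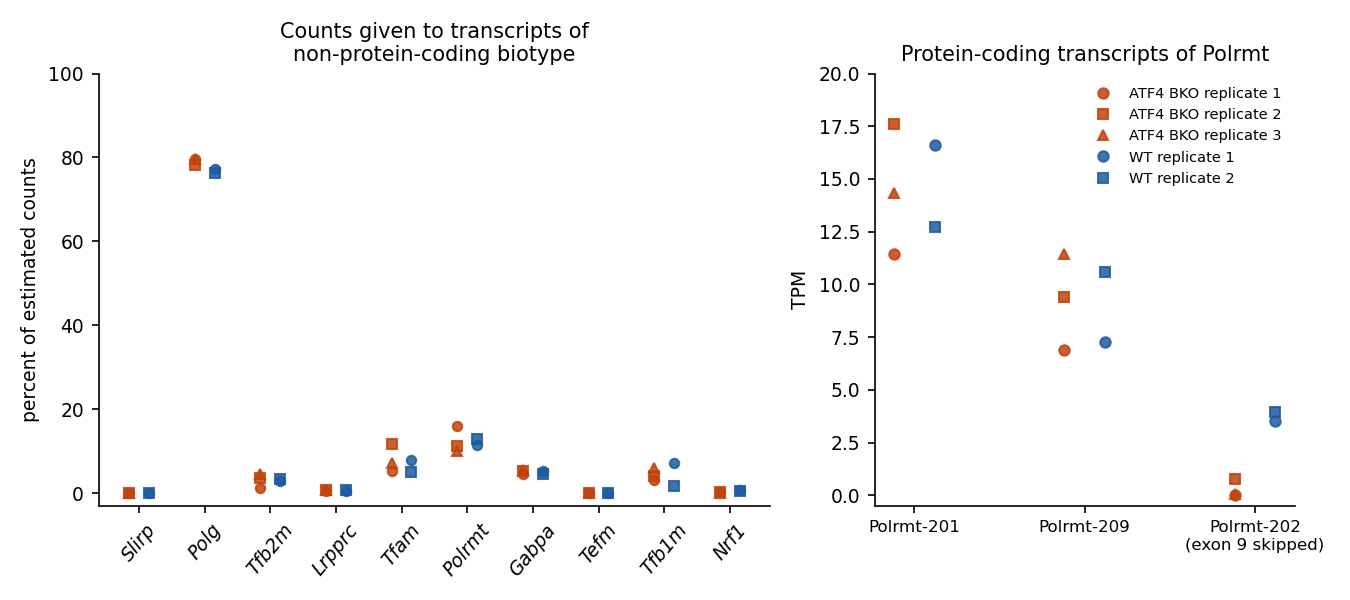
Left, percent of each gene's estimated counts assigned to transcripts of non-protein-coding biotype, 1 point per mouse; Polg lies above 76% in every mouse. Right, TPM of 3 protein-coding Polrmt transcripts per mouse; Polrmt-202, without exon 9, lies at 0.76 TPM or below in ATF4 BKO mice and at 3.50 TPM or above in WT mice.

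Other genes of the pathway, taken from lists set for this work, also held no gene that passed the test. Of 23 genes for mtDNA replication and the nucleoid (the protein-coated DNA), 17 had a log2 fold change below 0 and 6 above, with a median of -0.12, and edgeR and DESeq2 called none, with 0 at an unadjusted p under 0.05. In 4 all ATF4 BKO values lay below both WT values and in none above, beside 10.6% and 8.95% of all genes. Lig3, the ligase that seals mitochondrial DNA, was at 12.7, 14.1 and 10.3 CPM in ATF4 BKO and 16.0 and 15.4 CPM in WT mice, with a log2 fold change of -0.35. The helicase gene Twnk was at 38.9, 34.8 and 40.8 CPM against 46.9 and 29.4 CPM, the WT mice lying outside the ATF4 BKO range on both sides. Polg2, the accessory subunit of the DNA polymerase, had a log2 fold change of 0.16 and Ssbp1, the single-strand binding protein, one of -0.12, both with overlapping groups.

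Of 43 genes for the processing and decay of mitochondrial RNA, 28 were below 0 and 15 above, with a median of -0.066. In 7 all ATF4 BKO values lay below both WT values and in 1 above them, beside 10.6% and 8.95% of all genes. An unadjusted p under 0.05 was found for 2, beside 5.23% of all genes, and neither edgeR nor DESeq2 called any. Fastkd2, which binds the large rRNA and some mRNAs, was at 30.4, 29.7 and 29.3 CPM in ATF4 BKO and 41.0 and 36.3 CPM in WT mice, with a log2 fold change of -0.38 and little spread among the ATF4 BKO mice. Trmt5, a tRNA methyltransferase, was at 10.02, 9.15 and 10.1 CPM against 13.4 and 13.3 CPM, with a log2 fold change of -0.45. Mettl15, a methyltransferase of the small rRNA, had the lowest value of this list among genes whose groups did not overlap, at -0.53. Grsf1, a protein of the RNA granules next to the nucleoids, was the one gene of the list with higher CPM in every ATF4 BKO mouse, at 309, 289 and 300 CPM against 261 and 278 CPM, with a log2 fold change of 0.15. On TPM its groups overlapped and the direction turned, with means of 163 TPM in ATF4 BKO and 172 TPM in WT mice.

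Of 22 regulators of mitochondrial biogenesis, 9 were below 0 and 13 above, with a median of 0.034. In 3 all ATF4 BKO values lay below both WT values and in none above, beside the same 10.6% and 8.95%. An unadjusted p under 0.05 was found for 1, beside 5.23%, and neither tool called any. That one was Prkaa2, a catalytic subunit of the energy sensor AMPK, at 27.2, 32.1 and 26.4 CPM in ATF4 BKO and 42.3 and 39.6 CPM in WT mice, with a log2 fold change of -0.52 and an edgeR adjusted p of 0.810. Esrrg, an orphan nuclear receptor of oxidative tissues, had a log2 fold change of -0.34. Nfe2l1, a factor that maintains the proteasome in brown fat, was at 465, 413 and 477 CPM against 571 and 551 CPM. The coactivator gene Ppargc1a was at 67.6, 181 and 61.4 CPM in ATF4 BKO and 51.4 and 111 CPM in WT mice, a spread within each group that left its log2 fold change of 0.35 with an SE of 0.57. Its relatives Ppargc1b (0.099) and Pprc1 (-0.48), the receptor Esrra (0.045) and the GABPA partner Gabpb1 (0.12) had overlapping groups.

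**Figure D5:**
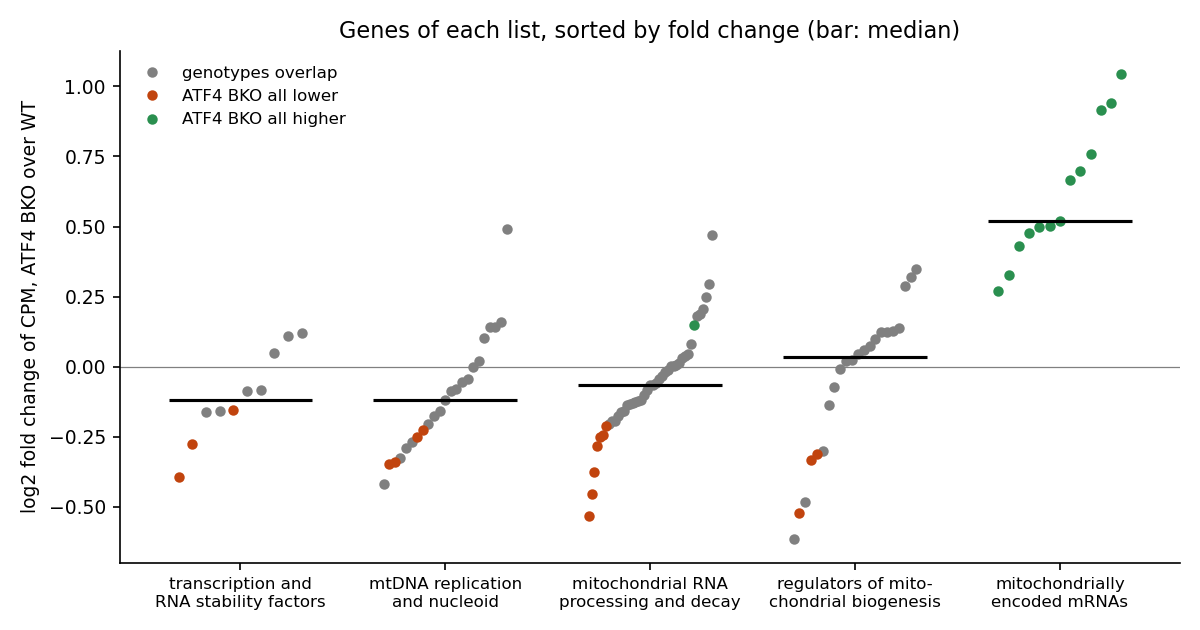
Log2 fold change of CPM, ATF4 BKO over WT (vertical axis), of every tested gene of each list, sorted within the list, with a bar at the median. The 13 mitochondrially encoded mRNAs lie above 0 with a median of 0.52, while the medians of the 10 genes described here and of the nuclear pathway lists lie between -0.12 and 0.034.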

How the data were processed

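The authors sequenced BAT mRNA of each mouse with a stranded kit and deposited, per mouse, estimated counts per transcript from Kallisto 0.45.0 (submitters' processing notes, build mm10), with no normalization between mice. The deposited tables also hold TPM, scaled by the authors' counter for effective length and library size. The annotation and the strand setting are not given in the sources used here. A second workflow with counts per gene was not analysed here.

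Estimated counts were summed per gene with GENCODE M21 (GRCm38) and rounded. Of 141450 transcripts, 138191 matched by identifier. The 16450 genes that reached 10 counts in 2 mice or more were tested with edgeR 4.0.16 in R 4.3.3 (TMM scaling, quasi-likelihood test, genotype as the sole term, Benjamini-Hochberg adjustment, threshold 0.05). CPM are scaled by TMM. SEs were taken from the F statistic, and 95% intervals from 6.06 degrees of freedom. No pair of libraries was alike within sampling noise (lowest chi-square per degree of freedom, 47.7). The script was tested on simulated counts.

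Alternatives were DESeq2 1.42.0 (the study's tool), other scalings, no count filter, limma 3.58.1 on log2(TPM + 1) and log2(TPM + 0.1), a muscle covariate, blocks, values within sample-name prefixes and leaving out each mouse.

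The 10 genes and all lists were chosen with earlier results of these data known. Of the mitochondrial RNA processing list, 43 of 44 genes matched. Besides the 10, the genes named are those called by either tool, up to 3 per direction and list with the largest fold change among genes with at least 1 CPM and no overlap of the groups, and 8 set by name (Ppargc1a, Ppargc1b, Pprc1, Esrra, Gabpb1, Twnk, Polg2 and Ssbp1). Motifs were searched in RefSeq promoter windows.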

Additional observations from a re-analysis of the deposited data

How the results depend on the processing

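Over 15 alternatives for each of the 10 genes, 136 of 150 fold changes kept their direction and 0 passed an adjusted p of 0.05, the smallest being 0.329 for Lrpprc without WT replicate 2. Tfam, Tfb1m, Tefm, Lrpprc and Nrf1 kept one direction in all of them, with ranges over the mice left out of -0.21 to -0.089, -0.26 to -0.047, -0.29 to -0.059, -0.56 to -0.21 and -0.38 to -0.16. The values that turned were as follows, and the cause was not tested. With library totals alone Gabpa was at -0.053. On log2(TPM + 1) and with 0.1 in place of 1, Tfb2m was at -0.054 and -0.055, Polg at -0.060 and -0.061, and Gabpa at -0.088 and -0.090. With the muscle covariate Polg was at -0.095. Leaving out 1 mouse gave -0.20 to 0.037 for Polrmt, -0.19 to 0.035 for Slirp and -0.047 to 0.16 for Gabpa. Within prefix S1 Polg was at -0.026, and within S2 Polrmt and Slirp were at 0.061 and Polg at 0.30.

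Fixed scalings shifted all genes: the median over all genes was 0.0077 as reported, -0.099 with library totals, -0.12 with TPM + 1 and -0.17 with TPM + 0.1. The median of the 10 genes minus that of all genes was -0.13 as reported and with totals. It was -0.14 with TPM + 1, -0.11 with TPM + 0.1 and -0.30 with the muscle covariate. Without WT replicates 1 and 2 in turn it was -0.043 and -0.21, and within S1 and S2 -0.21 and -0.0058. In that order (totals, TPM + 1, TPM + 0.1), the median of the 10 genes was -0.23, -0.27 and -0.28, that of the mtDNA list -0.23, -0.23 and -0.27, that of the RNA processing list -0.18, -0.24 and -0.25, and that of the regulators -0.074, -0.17 and -0.18. With the muscle covariate they were -0.29, -0.21 and -0.26 for the first 3. Within S1 they were -0.21, -0.17 and -0.14, and within S2 -0.038 for the 10 genes, 0.053 for RNA processing and -0.14 for the regulators. Leaving out 1 mouse gave -0.21 to -0.030, -0.16 to -0.062, -0.13 to -0.0079 and -0.069 to 0.076 for the 4 lists.

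Of the 10 genes, 6 were lower in every ATF4 BKO mouse with library totals (19.4% of all genes) and on TPM (24.9%), and 3 to 7 with 1 mouse left out (3 beside 18.5% of all genes without WT replicate 1, and 7 beside 30.7% without WT replicate 2). Over all genes edgeR called 1, DESeq2 121, edgeR without the count filter 8, limma 0 with a TPM pseudocount of 1 and 2 with 0.1, edgeR with the muscle covariate 218, and 0 to 23 with 1 mouse left out, the highest without WT replicate 1. With the replicate number as a block the count was 0 (711 with an unadjusted p under 0.05) and the median of the 10 genes -0.12, and with the prefix as a block the count was 0. Same-numbered mice correlated at 0.047 and 0.20 in their deviations, 2 pairs that share only a number. The share of the leading protein-coding transcript turned for Tfb2m in counts (0.048 percentage points) and, with 1 mouse left out, ranged from -4.13 to 4.19 points for Tfb1m, -6.70 to 4.22 for Tfb2m, -5.87 to 9.30 for Polrmt, -3.11 to 11.2 for Tefm, -1.03 to 0.24 for Lrpprc and -1.31 to 2.72 for Gabpa.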

Other observations

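Of the 2 mitochondrial rRNAs, 1 had a log2 fold change below 0 and 1 above, while all 13 mitochondrially encoded mRNAs were above 0. The rRNAs summed to 15300, 20039 and 16689 CPM in ATF4 BKO and to 27147 and 15984 CPM in WT mice, so that ATF4 BKO replicates 2 and 3 lay inside the WT range and replicate 1 just below it. The kit was one for mRNA, and how much rRNA it kept in each library was not measured.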
